A study of Mus musculus with 71 samples.

Results

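The libraries described here recorded how gene expression differed after 24 h of labelling with 4-thiouridine (s4U) in male mouse embryonic stem cells (mESC) treated with STM2457, an inhibitor of the m6A methyltransferase Mettl3. They are 8 of the 71 libraries of the series and were chosen by their titles and treatment label. Of these, 4 were collected at the end of labelling (T0) and 4 were made without s4U. The study followed RNA decay by SLAM-seq, in which s4U built into RNA is alkylated with iodoacetamide and then read as T-to-C conversions in 3′ end libraries of total RNA. After labelling, s4U was chased with excess uridine, and cells were collected at T0 and at the later time points T1 to T7 under STM2457 or DMSO. All groups were male mESC grown on gelatin in 2i/LIF medium, which blocks the kinases Gsk3 and Mek and supplies the cytokine LIF. The labelled cells received 100 µM s4U for 24 h with fresh medium every 3 h, and the inhibitor was added 6 h before the chase. The labels do not give the inhibitor time of the unlabelled cells or say whether their medium was exchanged as often. An effect of s4U therefore cannot be told apart from an effect of either. The matching 4 labelled and 4 unlabelled DMSO libraries were used for comparison. All libraries came from 1 cell line.

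s4U is a uridine analogue that cells take up and build into new RNA in place of uridine. At high doses it is known to disturb ribosomal RNA processing and to activate p53 (Trp53), a transcription factor that raises genes of cell cycle arrest, apoptosis and DNA repair, among them its own inhibitor Mdm2. Cells in 2i/LIF are held in the naive state of pluripotency, from which they pass through a formative and a primed state before they form germ layers.

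The 8 libraries held 5302364 to 6744816 reads assigned to genes: 5302364, 6744816, 6448772 and 6348479 in unlabelled replicates 1 to 4, and 6290307, 5606256, 6005088 and 6591606 in labelled replicates 1 to 4. T-to-C conversions were found at 0.0930, 0.0818, 0.0836 and 0.0733% of covered T positions without s4U and at 1.18, 1.30, 1.36 and 1.27% with it. Every labelled library lay far above every unlabelled one, as their titles state. An exact permutation test of this difference, two-sided, gave p = 0.0286, and no smaller value can be reached with 4 libraries against 4. Multimapping reads made up 27.1% ± 0.778 without s4U and 27.2% ± 0.610 with it (SD, n = 4, exact permutation p = 0.886). The 100 most abundant genes took 29.8% ± 0.891 without s4U and 30.4% ± 0.643 with it (SD, n = 4, exact permutation p = 0.457) of reads. Covered T positions per read were 19.7 ± 0.339 without s4U and 19.7 ± 0.169 with it (SD, n = 4, exact permutation p = 0.914). Unlabelled replicate 1 stood apart from its group. Its mean correlation across genes with the other unlabelled libraries was 0.944, against 0.958 to 0.960 for the rest, so the counts of called genes and p53 targets, and the genes whose log2 fold change moved most, are also given without it.

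Most markers of embryonic stem cells were abundant. Less so were Klf4, at a mean of 3.10 CPM by total reads without s4U and 2.33 CPM with it, and Tfcp2l1, at 36.2 and 26.6 CPM. The log2 fold change of Tfcp2l1 was -0.48, which did not pass the test (edgeR adjusted p = 0.194). Nanog, a core pluripotency factor, was at 285, 288, 285 and 311 normalised CPM (counts scaled by library size) in the unlabelled libraries and 269, 275, 225 and 239 CPM in the labelled ones. The groups did not overlap, but the difference did not pass the test (log2 fold change -0.21 ± 0.10 (SE), edgeR adjusted p = 0.385). Pou5f1, another core factor, was at 1061, 934, 951 and 1056 CPM and 884, 926, 878 and 875 CPM, also without overlap. Pou5f1 had a log2 fold change of -0.17 ± 0.09 (SE, edgeR adjusted p = 0.458), but 96.2% of its reads also mapped elsewhere and on uniquely mapping reads the value was 0.29, of opposite sign. Sox2 was not analysed here. Each library held 3814 to 4436 CPM by total reads over 7 of 8 stem cell markers, led by Dppa5a. Reads that also mapped elsewhere made up 99.95% of those of Dppa5a, 72.6% of those of Zfp42 and 58.8% of those of Klf4. The sums were 3.21 to 9.46 CPM for 4 primitive endoderm markers, led by Gata4, and 0 to 1.43 CPM for 4 markers of the 2-cell-like state, led by Zscan4c. The 2 mesoderm and neural markers read, led by T, summed to 21.7, 45.2, 41.6 and 45.7 CPM without s4U and 18.1, 17.1, 8.33 and 18.4 CPM with it, while Sox1 and Pax6 were not analysed here. The 4 trophoblast markers, led by Cdx2 and with Elf5 at 0 reads in all 8 libraries, summed to 34.3, 41.4, 44.2 and 40.2 CPM and 37.7, 23.9, 25.6 and 27.5 CPM, and these groups overlapped. The 4 fibroblast markers, led by Thy1 and with Col3a1 at 0 reads, summed to 15.1, 16.2, 20.9 and 23.2 CPM and 13.04, 11.95, 8.99 and 12.7 CPM, without overlap. Wider lists of the same cell types were also summed, as means over libraries. The trophoblast list summed to 619.7 CPM without and 624 CPM with s4U over 15 genes. The mesoderm and neural list, which leaves out T, summed to 44.1 CPM without and 39.03 CPM with s4U over 12 genes. The fibroblast list summed to 416 CPM without and 384 CPM with s4U over 15 genes and the primitive endoderm list to 235 CPM without and 284 CPM with s4U over 17 genes. Of those of these markers that were tested, only T was called by edgeR, and their part in the results below was not tested. In such bulk samples fewer cells of a type and less RNA per cell cannot be told apart. Mettl3, the target of the inhibitor, was at 26.4, 16.98, 24.7 and 23.4 CPM and 31.3, 34.1, 27.7 and 22.4 CPM, with overlapping groups (log2 fold change 0.34 ± 0.20 (SE), edgeR adjusted p = 0.490).

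Labelled and unlabelled cells under STM2457 differed in few genes. The p53 targets Trp53inp1, Perp and Zfp365 rose, and the growth factor Fgf8, the homeobox gene Evx1 and the T-box factor T fell. Of 10803 genes tested, edgeR called 55 (0.509%) at an adjusted p under 0.01. In labelled cells 26 (0.241%) were higher and 29 (0.268%) lower, and 48 of the 55 changed by at least 1.5-fold. The groups did not overlap for 872 genes (8.07%), the 55 called among them, and the median log2 fold change over all genes tested was 0.01. An unadjusted p under 0.05 was reached by 1414 genes (13.1%), and DESeq2 called 132. The number of calls depended on single libraries. It was 63, 21, 15 and 32 without unlabelled replicates 1, 2, 3 and 4 in turn, and 22, 19, 13 and 25 without labelled replicates 1, 2, 3 and 4 in turn. Of the 63 called without unlabelled replicate 1, 50 were among the 55. Without it the log2 fold changes of all 55 kept their sign and moved by at most 0.22, the move of T. A fit of all 16 STM2457 and DMSO libraries, in which both treatments share 1 estimate of the spread, called 42, of which 38 were among the 55.

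**Figure D1:**
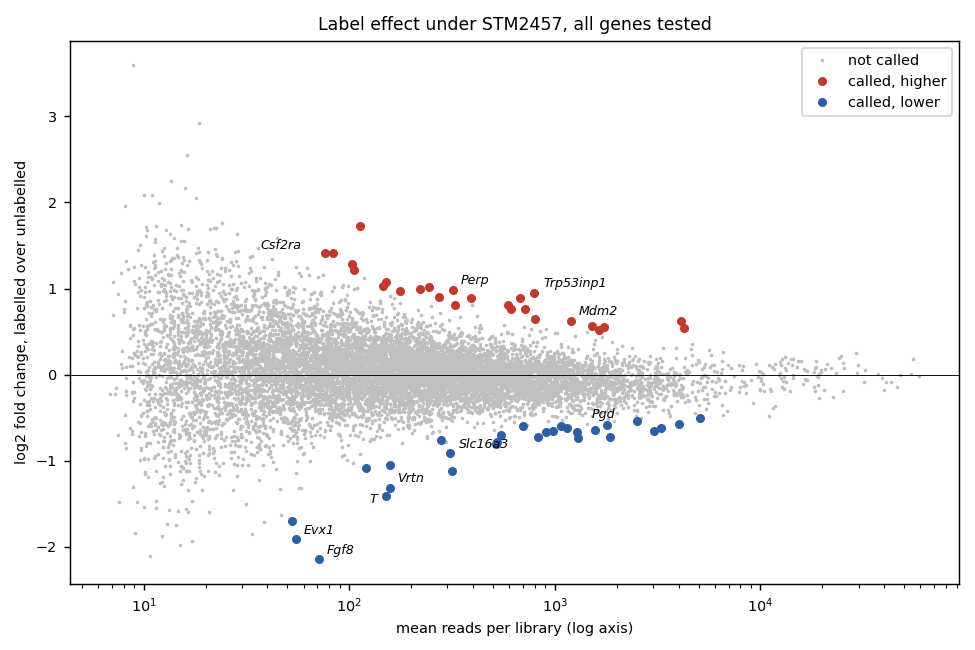
Log2 fold change of labelled over unlabelled STM2457 cells against the mean reads per library (log axis) for the 10803 genes tested. Points stand for genes, with the 26 called higher in red and the 29 called lower in blue.

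Of the 27 gene lists examined, the targets of p53 had the most members called. The lists and their members were chosen with earlier results of these data known, so the counts and shares are a description. Of 38 tested, edgeR called 7 higher and 0 lower at an adjusted p under 0.01, against 0.241% and 0.268% of all genes. DESeq2 called 10 higher and 0 lower, against 0.555% and 0.666% of all genes, and edgeR called 10 and 0 at an adjusted p under 0.05, against 0.583% and 0.62%. The median log2 fold change of the list was 0.42, beside 0.01 over all genes tested, and 33 of the 38 (86.8%) were above 0, beside 51.6% of all genes. The 7 were Plk2, Zfp365, Perp, Trp53inp1, Ddit4, Phlda3 and Mdm2, of which Trp53inp1 and Phlda3 were chosen for naming after their values were seen. The count was 7 without unlabelled replicate 1, but 4 without unlabelled replicate 2, 4 without unlabelled replicate 3 and 4 without labelled replicate 3.

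Trp53inp1 (chr4:11156431-11174379), a stress-induced nuclear protein that promotes p53 activity, was at 88.6, 89.9, 84.5 and 87.8 CPM in unlabelled and 164, 170.01, 185 and 160.2 CPM in labelled replicates 1 to 4 (positions here and below are of GRCm38). All labelled libraries were well above the unlabelled ones. Trp53inp1 had a log2 fold change of 0.95 ± 0.11 (SE, edgeR adjusted p = 4.56e-05), and the call did not end with any 1 library left out (adjusted p up to 0.00108, edgeR). Perp (chr10:18845020-18857073), a membrane protein of desmosomes and of apoptosis, was at 34.5, 33.8, 36.7 and 34.8 CPM and 72.6, 78.6, 72.1 and 53.5 CPM. The unlabelled values lay close together, and the lowest labelled one, of replicate 4, was still above them. Perp had a log2 fold change of 0.98 ± 0.15 (SE, edgeR adjusted p = 0.000896), and the call did not end with any 1 library left out (adjusted p up to 0.00665, edgeR). Phlda3 (chr1:135766119-135769136), a repressor of Akt, was at 64.2, 67.2, 71.5 and 76.5 CPM and 113, 103, 148 and 126 CPM. Every labelled value exceeded all unlabelled ones. Phlda3 had a log2 fold change of 0.81 ± 0.13 (SE, edgeR adjusted p = 0.00149), and it was not called by edgeR without labelled replicate 3 (adjusted p = 0.0144).

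Mdm2 (chr10:117688875-117710758), the ubiquitin ligase that degrades p53, was at 129, 169.5, 165 and 148 CPM in unlabelled and 187, 262, 241 and 256 CPM in labelled libraries. Labelled replicate 1 lay nearest to the unlabelled libraries without overlapping them. Mdm2 had a log2 fold change of 0.63 ± 0.12 (SE, edgeR adjusted p = 0.00599), and it was not called by edgeR without unlabelled replicate 2, 3 or 4 or labelled replicate 2, 3 or 4 (adjusted p of 0.0131 to 0.0328). Zfp365 (chr10:67886103-67912662), a zinc finger protein of genome stability, was at 28.5, 20.5, 21.9 and 25.5 CPM and 51.5, 47.8, 47.1 and 45.8 CPM. Labelled and unlabelled values were separate. Zfp365 had a log2 fold change of 1.00 ± 0.17 (SE, edgeR adjusted p = 0.00179), and it was not called by edgeR without unlabelled replicate 2 or 3 or labelled replicate 1 (adjusted p of 0.0112 to 0.0125). Plk2 (chr13:110395046-110400844), a polo-like kinase, was at 10.1, 15.7, 15.9 and 20.8 CPM and 35.9, 33.04, 28.3 and 34.5 CPM. Its highest unlabelled library, replicate 4, stayed below all labelled ones. Plk2 had a log2 fold change of 1.07 ± 0.21 (SE, edgeR adjusted p = 0.00621), and it was not called by edgeR without unlabelled replicate 2 or 3 or any 1 labelled replicate (adjusted p of 0.0170 to 0.0377). Ddit4 (chr10:59949669-59951834), an inhibitor of mTORC1 that also belongs to the ATF4 and hypoxia lists, was at 61.8, 85.5, 85.1 and 73.2 CPM and 118, 150.05, 159 and 142 CPM. All labelled libraries were above all unlabelled ones. Ddit4 had a log2 fold change of 0.89 ± 0.13 (SE, edgeR adjusted p = 0.000692), and the call did not end with any 1 library left out (adjusted p up to 0.00647, edgeR).

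Other p53 targets did not pass the test. Cdkn1a, an inhibitor of cyclin-dependent kinases, was at 193, 217, 192 and 203 CPM in unlabelled and 202, 168, 259 and 252 CPM in labelled libraries. The groups overlapped, with labelled replicate 2 the lowest of all 8 and labelled replicates 3 and 4 the highest (log2 fold change 0.13 ± 0.12 (SE), edgeR adjusted p = 0.714). Trp53 itself was at 67.6, 98.7, 71.2 and 72.9 CPM and 79.3, 62.3, 79.8 and 85.98 CPM, also overlapping (log2 fold change -0.01 ± 0.14 (SE), edgeR adjusted p = 0.986). Ccng1, Bax and Pmaip1 were chosen after their values were seen. Ccng1, a cyclin, was at 120.5 ± 19.7 and 174 ± 11.7 CPM (SD, n = 4, edgeR adjusted p = 0.0266) without and with s4U. Bax, an effector of apoptosis, was at 125 ± 34.4 and 109 ± 6.24 CPM (SD, n = 4, edgeR adjusted p = 0.621), and Pmaip1, a protein of apoptosis, at 11.99 ± 2.43 and 8.52 ± 2.18 CPM (SD, n = 4, edgeR adjusted p = 0.507).

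**Figure D2:**
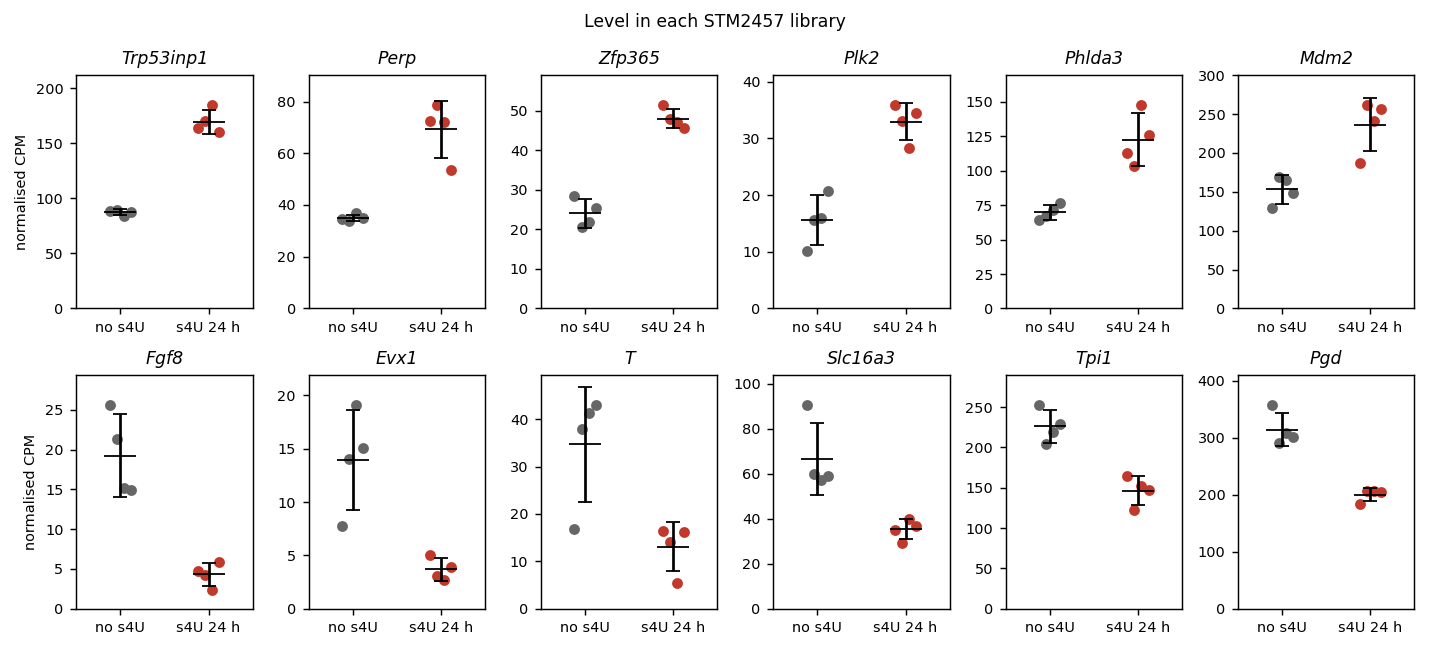
Normalised CPM (linear axes from 0) in each of the 4 unlabelled and 4 labelled STM2457 libraries for 6 p53 targets and for 6 genes called lower. Points stand for libraries and bars for the mean and SD, and the groups do not overlap for any of these genes.

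Gadd45g and Nodal also rose. Gadd45g (chr13:51846678-51848468), a gene of stress and growth arrest, was at 31.5, 21.2, 31.04 and 22.3 CPM in unlabelled and 42.1, 57.6, 70.4 and 43.5 CPM in labelled libraries. Labelled replicates 2 and 3 were the highest of all. Gadd45g had a log2 fold change of 1.01 ± 0.19 (SE, edgeR adjusted p = 0.00421), and it was not called by edgeR without unlabelled replicate 2, 3 or 4 or labelled replicate 2 or 3 (adjusted p of 0.0113 to 0.0428). Nodal (chr10:61417972-61425338), a TGF-beta ligand, was at 86.98, 109, 98.3 and 107 CPM and 144, 199.9, 143 and 144 CPM. Labelled replicate 2 stood above the other labelled libraries, which lay close together above the unlabelled ones. Nodal had a log2 fold change of 0.65 ± 0.13 (SE, edgeR adjusted p = 0.00638), and it was not called by edgeR without unlabelled replicate 2, 3 or 4 or any 1 labelled replicate (adjusted p of 0.0138 to 0.0444), nor in the fit of all 16 libraries (adjusted p = 0.0128).

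Other large increases were in genes of lower abundance. Csf2ra, a cytokine receptor subunit, was at 6.72 ± 2.07 CPM without s4U and 17.97 ± 2.29 CPM with it (SD, n = 4). Csf2ra had a log2 fold change of 1.42 ± 0.28 (SE, edgeR adjusted p = 0.00599), and it was not called by edgeR without unlabelled replicate 2 or 3 or any 1 labelled replicate (adjusted p of 0.0176 to 0.0370). Mettl27, a putative methyltransferase, was at 10.3 ± 3.01 CPM without s4U and 24.01 ± 3.20 CPM with it (SD, n = 4). Mettl27 had a log2 fold change of 1.22 ± 0.24 (SE, edgeR adjusted p = 0.00625), and it was not called by edgeR without unlabelled replicate 2 or 4 or any 1 labelled replicate (adjusted p of 0.0130 to 0.0322). Zfp703, a transcriptional corepressor, was at 15.5 ± 1.11 CPM without s4U and 31.6 ± 5.10 CPM with it (SD, n = 4). Zfp703 had a log2 fold change of 1.03 ± 0.20 (SE, edgeR adjusted p = 0.00465), and it was not called by edgeR without unlabelled replicate 2, 3 or 4 or labelled replicate 1, 3 or 4 (adjusted p of 0.0113 to 0.0368), nor in the fit of all 16 libraries (adjusted p = 0.0374). Zfp688, a zinc finger protein, was at 9.59 ± 3.99 CPM without s4U and 23.6 ± 1.06 CPM with it (SD, n = 4). Zfp688 had a log2 fold change of 1.29 ± 0.26 (SE, edgeR adjusted p = 0.00754), and it was not called by edgeR without unlabelled replicate 1, 3 or 4 or any 1 labelled replicate (adjusted p of 0.0119 to 0.0377). The groups did not overlap for any of these genes.

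Fgf8 had the largest decrease. Fgf8 (chr19:45736798-45742915), a growth factor of the primitive streak, was at 25.6, 21.4, 15.1 and 14.9 CPM in unlabelled and 4.77, 4.30, 2.35 and 5.83 CPM in labelled libraries. Every labelled library was far below every unlabelled one. Fgf8 had a log2 fold change of -2.14 ± 0.31 (SE, edgeR adjusted p = 0.000667), and the call did not end with any 1 library left out (adjusted p up to 0.00571, edgeR). Evx1 (chr6:52313498-52318378), a homeobox factor of the primitive streak, was at 7.73, 14.1, 19.1 and 15.05 CPM and 5.08, 3.10, 2.68 and 3.89 CPM. Unlabelled replicate 1 was the lowest of its group and nearest to the labelled libraries. Evx1 had a log2 fold change of -1.92 ± 0.35 (SE, edgeR adjusted p = 0.00325), and it was not called by edgeR without unlabelled replicate 2, 3 or 4 or labelled replicate 2, 3 or 4 (adjusted p of 0.0131 to 0.0281), nor in the fit of all 16 libraries (adjusted p = 0.0341). T (chr17:8434423-8442496), the mesodermal T-box factor also called brachyury, was at 16.8, 37.9, 41.3 and 42.9 CPM and 16.4, 14.1, 5.54 and 16.3 CPM. Unlabelled replicate 1 nearly met the labelled libraries, while the other unlabelled ones were far higher. T had a log2 fold change of -1.41 ± 0.28 (SE, edgeR adjusted p = 0.00656), and it was not called by edgeR without unlabelled replicate 2, 3 or 4 or any 1 labelled replicate (adjusted p of 0.0170 to 0.0358), nor with total counts as the only scaling (adjusted p = 0.0113). Without unlabelled replicate 1 the log2 fold change was -1.63 for T and -2.11 for Evx1 (edgeR adjusted p = 0.000276 and 0.000395). Lefty2, an inhibitor of Nodal, was at 197 ± 26.3 CPM without s4U and 124 ± 12.9 CPM with it (SD, n = 4). Lefty2 had a log2 fold change of -0.66 ± 0.12 (SE, edgeR adjusted p = 0.00323), and it was not called by edgeR without unlabelled replicate 2 or labelled replicate 1, 2 or 3 (adjusted p of 0.0131 to 0.0249).

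The remaining large decreases were in genes of varied roles. Vrtn, a factor of vertebral patterning, was at 36.8 ± 7.61 CPM without s4U and 14.7 ± 4.07 CPM with it (SD, n = 4). Vrtn had a log2 fold change of -1.31 ± 0.22 (SE, edgeR adjusted p = 0.00177), and it was not called by edgeR without labelled replicate 3 (adjusted p = 0.0137). Chd3, a chromatin remodeller of the NuRD complex, was at 34.6 ± 3.89 CPM without s4U and 16.6 ± 4.98 CPM with it (SD, n = 4). Chd3 had a log2 fold change of -1.06 ± 0.21 (SE, edgeR adjusted p = 0.00645), and it was not called by edgeR without unlabelled replicate 2, 3 or 4 or labelled replicate 1, 2 or 3 (adjusted p of 0.0149 to 0.0357), nor in the fit of all 16 libraries (adjusted p = 0.0220). Exoc3l, related to a subunit of the exocyst, was at 71.9 ± 21.6 CPM without s4U and 32.9 ± 7.12 CPM with it (SD, n = 4). Exoc3l had a log2 fold change of -1.12 ± 0.19 (SE, edgeR adjusted p = 0.00186), and it was not called by edgeR without unlabelled replicate 3 or labelled replicate 2 or 4 (adjusted p of 0.0111 to 0.0146). Without unlabelled replicate 1 Exoc3l had a log2 fold change of -0.94 (edgeR adjusted p = 0.00359). Pglyrp1, a peptidoglycan recognition protein, was at 13.3 ± 3.30 CPM without s4U and 4.03 ± 1.32 CPM with it (SD, n = 4). Pglyrp1 had a log2 fold change of -1.71 ± 0.34 (SE, edgeR adjusted p = 0.00720), and it was not called by edgeR without any 1 unlabelled replicate or any 1 labelled replicate (adjusted p of 0.0131 to 0.0415), nor in the fit of all 16 libraries (adjusted p = 0.0102). The groups did not overlap for any of these genes.

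In the list of hypoxia and glycolysis, edgeR called 1 of 34 tested members higher and 2 lower (median log2 fold change -0.15), beside 0.241% and 0.268% of all genes: Ddit4 rose, and Slc16a3 and Tpi1 fell. The count called lower was 1 in the fit of all 16 libraries. With no filter on low counts it was 3, and at an adjusted p under 0.05 (edgeR) also 3. It was 1 without unlabelled replicate 3 or 4 or labelled replicate 1, and 0 without labelled replicate 2, 3 or 4. Slc16a3 (chr11:120948480-120960868), a lactate exporter, was at 90.3, 59.7, 57.4 and 58.9 CPM in unlabelled and 34.9, 29.3, 39.9 and 36.9 CPM in labelled libraries. Unlabelled replicate 1 was far above the rest of its group, which still lay above all labelled libraries. Slc16a3 had a log2 fold change of -0.91 ± 0.17 (SE, edgeR adjusted p = 0.00323), and it was not called by edgeR without any 1 labelled replicate (adjusted p of 0.0118 to 0.0186), nor in the fit of all 16 libraries (adjusted p = 0.0271). Without unlabelled replicate 1 Slc16a3 had a log2 fold change of -0.73 (edgeR adjusted p = 0.00771). Tpi1 (chr6:124810586-124814296), triosephosphate isomerase of glycolysis, was at 252, 204, 219 and 229.5 CPM and 165, 122, 152 and 147 CPM. Every labelled value was below all unlabelled ones. Tpi1 had a log2 fold change of -0.62 ± 0.12 (SE, edgeR adjusted p = 0.00409), and it was not called by edgeR without unlabelled replicate 3 or 4 or labelled replicate 2, 3 or 4 (adjusted p of 0.0131 to 0.0211). Gapdh and Ldha, named after their values were seen, did not pass. Gapdh was at 5986 ± 608 and 6028 ± 982 CPM (SD, n = 4, edgeR adjusted p = 0.987), with nearly all of its reads also mapping elsewhere, and Ldha at 618 ± 63.4 and 518 ± 90.4 CPM (SD, n = 4, edgeR adjusted p = 0.343).

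In the NRF2 list of thiol and oxidative responses, edgeR called 0 of 28 tested members higher and 1 lower (median log2 fold change -0.10), beside 0.241% and 0.268% of all genes, the gene being Pgd. The count called higher was 1 with no filter on low counts. The count called lower was 2 with DESeq2, 2 with no filter on low counts and 2 at an adjusted p under 0.05 (edgeR). Pgd (chr4:149149991-149166771), which makes NADPH in the pentose phosphate pathway, was at 357, 292, 308 and 301 CPM in unlabelled and 183, 206, 207 and 205 CPM in labelled libraries. Every labelled library was well below every unlabelled one. Pgd had a log2 fold change of -0.65 ± 0.11 (SE, edgeR adjusted p = 0.00170), and it was not called by edgeR without labelled replicate 1 (adjusted p = 0.0118). For the ATF4 stress response edgeR called 1 of 41 tested members higher and 1 lower (median log2 fold change -0.10), beside 0.241% and 0.268% of all genes. Ddit4 rose and Slc7a3 fell. For this list the count called lower was 2 with DESeq2, 3 with no filter on low counts and 2 at an adjusted p under 0.05 (edgeR). Slc7a3 (chrX:101079210-101086020), a transporter of cationic amino acids, was at 101.4, 100.6, 112 and 115 CPM and 69.3, 55.8, 54.8 and 69.5 CPM. Again the groups were separate. Slc7a3 had a log2 fold change of -0.78 ± 0.13 (SE, edgeR adjusted p = 0.00177), and it was not called by edgeR without unlabelled replicate 3 or labelled replicate 3 (adjusted p of 0.0113 to 0.0144). Atf4 itself was at 600.4 ± 16.2 CPM without s4U and 554 ± 37.2 CPM with it (SD, n = 4) and did not pass (log2 fold change -0.11 ± 0.10 (SE), edgeR adjusted p = 0.674). Among ribosome assembly factors edgeR called 0 of 97 tested members higher and 1 lower (median log2 fold change -0.11), beside 0.241% and 0.268% of all genes. Of the 97, 22 (22.7%) had a log2 fold change above 0, beside 51.6% of all genes. Low shares were not particular to this list. They were 23.5% for hypoxia and glycolysis, 29.7% for splicing factors, 32.1% for NRF2 and 32.9% for mitochondrial ribosomal proteins. Other lists lay above the share of all genes, such as cytosolic ribosomal proteins with 63.5%. The shares were not tested. With total counts as the only scaling the median over all genes was 0.05. That over the assembly factors was -0.07, with 31 of the 97 above 0. Their count called lower was 2 with DESeq2, 2 with no filter on low counts, 0 in the fit of all 16 libraries and 2 at an adjusted p under 0.05 (edgeR). Rrp9, the factor called and a component of the U3 small nucleolar ribonucleoprotein, was at 181 ± 23.9 CPM without s4U and 114 ± 20.3 CPM with it (SD, n = 4). Rrp9 had a log2 fold change of -0.66 ± 0.13 (SE, edgeR adjusted p = 0.00704), and it was not called by edgeR without unlabelled replicate 1, 2 or 3 or any 1 labelled replicate (adjusted p of 0.0104 to 0.0372), nor in the fit of all 16 libraries (adjusted p = 0.0554).

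Among naive pluripotency genes edgeR called 0 of 27 tested members higher and 1 lower (median log2 fold change -0.05), beside 0.241% and 0.268% of all genes, the gene being Lefty2, which was not called by edgeR without unlabelled replicate 2 or labelled replicate 1, 2 or 3 (adjusted p of 0.0131 to 0.0249). Among genes of the formative and primed state edgeR called 1 of 20 tested members higher and 1 lower (median log2 fold change -0.24), beside 0.241% and 0.268% of all genes. Nodal was higher and T lower. The count called higher was 0 in the fit of all 16 libraries. The count called lower was 0 with total counts as the only scaling. Both these counts were 0 when any library but unlabelled replicate 1 was left out. Of the zinc finger genes of the Zfp family edgeR called 3 of 287 tested members higher and 1 lower (median log2 fold change 0.07), beside 0.241% and 0.268% of all genes. Zfp688, Zfp703 and Zfp365 rose, and Zfp428, named after its values were seen, fell. The number called higher was 2, 1, 0 and 1 without unlabelled replicates 1 to 4 in turn and 0, 2, 1 and 1 without labelled replicates 1 to 4 in turn. The number called lower was 1, 0, 0 and 1 and 0, 1, 0 and 1 in the same order. The count called lower was 2 with no filter on low counts. Zfp428 had a log2 fold change of -0.59 ± 0.10 (SE, edgeR adjusted p = 0.00236), and it was not called by edgeR without unlabelled replicate 2 or 3 or labelled replicate 1 or 3 (adjusted p of 0.0126 to 0.0177). In the other lists edgeR called no member at an adjusted p under 0.01, and the number tested and the median log2 fold change are given for each. Among lists of stress and RNA these were snoRNA host genes (12, 0.09), heat shock response (22, -0.05), interferon and RNA sensing (12, -0.03) and splicing factors SR and hnRNP (37, -0.10). For uridine and m6A they were nucleoside uptake and pyrimidine metabolism (35, -0.01) and m6A machinery (21, -0.02). For markers of other cells, with T not among them, they were primitive endoderm markers (6, 0.24), trophoblast markers (9, 0.06), mesoderm and neural markers (4, -0.54) and fibroblast markers (5, -0.08). For growth and metabolism they were cholesterol synthesis (26, 0.09), cell cycle G1 and S (31, -0.01), cell cycle G2 and M (36, -0.02), immediate early genes (17, 0.07) and oxidative phosphorylation (89, 0.04). For translation and chromatin they were cytosolic ribosomal proteins (74, 0.05), mitochondrial ribosomal proteins (76, -0.08) and histone genes (30, 0.04). No gene of the 2-cell-like list passed the filter on low counts. In these lists 1 member each of the snoRNA host, heat shock and primitive endoderm lists passed at an adjusted p under 0.05 (edgeR), and DESeq2 called 1 each of the snoRNA host, heat shock and splicing factor lists.

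Genes that handle uridine did not pass the test. Uck2, the kinase that phosphorylates uridine, was at 227 ± 44.5 CPM without s4U and 240.5 ± 14.3 CPM with it (SD, n = 4). Uck2 had a log2 fold change of 0.08 ± 0.12 (SE, edgeR adjusted p = 0.839). Upp1, uridine phosphorylase, was at 259.9 ± 15.9 CPM without s4U and 217 ± 35.4 CPM with it (SD, n = 4). Upp1 had a log2 fold change of -0.26 ± 0.12 (SE, edgeR adjusted p = 0.333). Slc29a1, a nucleoside transporter, was at 85.3 ± 8.31 CPM without s4U and 70.4 ± 16.2 CPM with it (SD, n = 4). Slc29a1 had a log2 fold change of -0.27 ± 0.15 (SE, edgeR adjusted p = 0.449). Myc, a driver of growth, was at 7.00 ± 2.32 CPM without s4U and 4.92 ± 1.29 CPM with it (SD, n = 4). Myc had a log2 fold change of -0.50 ± 0.40 (SE, edgeR adjusted p = 0.655). The groups overlapped for each of these genes.

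The label was also compared in cells given DMSO in place of STM2457, with no library shared between the comparisons. There edgeR called 14 of 10771 genes (0.13%) at an adjusted p under 0.01, 9 higher and 5 lower. Of the 26 genes called higher under STM2457 all 26 were above 0 under DMSO and 8 were called there. Of the 29 called lower all 29 were below 0 and 5 were called. Of the 10535 genes tested under both treatments, 49.8% were above 0 under DMSO. The log2 fold change (± SE) of Trp53inp1 was 0.95 ± 0.11 under STM2457 and 0.75 ± 0.11 under DMSO. Mdm2 had 0.63 ± 0.12 under STM2457 and 0.94 ± 0.12 under DMSO. For T the values were -1.41 ± 0.28 under STM2457 and -1.74 ± 0.18 under DMSO. The median over the p53 targets was 0.42 under STM2457 and 0.57 under DMSO, beside 0.01 and -0.001 over all genes. The test of a different label effect, the interaction of label and treatment, called 0 of 11349 genes (0%) by edgeR and 0 by DESeq2. An unadjusted p under 0.05 in edgeR was reached by 334 genes (2.94%), fewer than that threshold would give by chance. The smallest interaction p were those of Hsd3b7, Cenpu, Zbtb24 and Bcl9, each with an edgeR adjusted p of 0.999. Hsd3b7, an enzyme of bile acid synthesis of very low abundance, had -1.16 ± 0.59 under STM2457 and 2.12 ± 0.53 under DMSO. Cenpu, a centromere protein, had 0.53 ± 0.20 under STM2457 and -0.42 ± 0.19 under DMSO, Zbtb24 1.14 ± 0.36 under STM2457 and -0.57 ± 0.33 under DMSO and Bcl9, of Wnt signalling, 0.49 ± 0.21 under STM2457 and -0.54 ± 0.24 under DMSO. No response was shown to be particular to STM2457, and the missed threshold does not show that the responses were equal.

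Called genes were followed in the STM2457 chase libraries, which were labelled and then given uridine, with no test because the unlabelled libraries are shared. Per the study's methods the inhibitor stayed in the medium during the chase, so its time grew from T0 to T7. A change after the end of labelling therefore cannot be told apart from an effect of longer inhibition. Trp53inp1 was at 87.7 ± 2.31 CPM without s4U, 169.7 ± 10.9 at T0, 124 ± 13.99 at T5 and 156 ± 11.5 at T7 (SD, n = 4). In every chase library it was above all unlabelled ones. Mdm2 was at 153 ± 18.2 CPM without s4U, 236 ± 34.1 at T0, 155 ± 12.04 at T5 and 189 ± 6.36 at T7 (SD, n = 4). It was within the unlabelled spread at T5 and above it again at T7. Fgf8 was at 19.2 ± 5.17 CPM without s4U, 4.31 ± 1.46 at T0, 2.07 ± 0.646 at T5 and 5.56 ± 1.81 at T7 (SD, n = 4), and every chase library was below all unlabelled ones. Pgd was at 314 ± 29.2 CPM without s4U, 200.3 ± 11.4 at T0, 254 ± 10.1 at T5 and 315 ± 9.78 at T7 (SD, n = 4), back at the unlabelled level at the last time point. Over the 26 genes called higher, the median log2 ratio to unlabelled cells was 0.89 at T0 and 0.40 at T7. Over the 29 called lower it was -0.72 and -0.77, beside 0.01 at T7 for all genes tested. The T0 values chose these genes, and the unlabelled libraries enter every ratio, so the medians are a description.

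**Figure D3:**
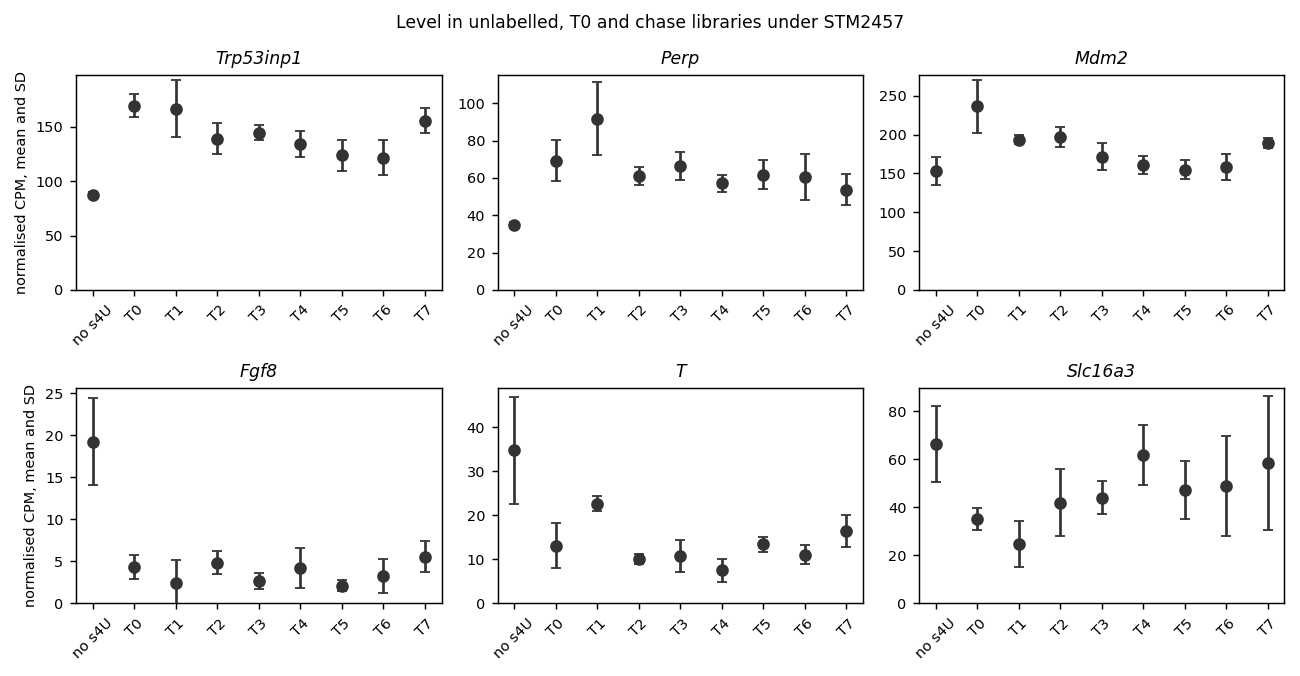
Mean normalised CPM (linear axes from 0) with SD over libraries for 6 called genes in unlabelled cells, at T0 and at the chase time points T1 to T7 under STM2457, with 3 libraries at T4 and 4 elsewhere. Trp53inp1 stays above and Fgf8 below the unlabelled level at every time point.

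Further properties were described over genes, of which abundance also enters the filter on low counts and the test. Label content, the T-to-C conversion rate of a gene in labelled DMSO libraries, had a median of 1.40% for genes called higher, 1.27% for genes called lower and 1.36% for all genes tested. In 4 equal bins from low to high label content, edgeR called 3 higher and 14 lower, 8 higher and 5 lower, 10 higher and 4 lower, and 5 higher and 6 lower. The median log2 fold change was 0.02 in the lowest bin and 0.04 in the highest. T content of the counted windows had medians of 30.1%, 29.6% and 30.4% for genes called higher, called lower and tested. In 2 equal bins of abundance, the lower held 7 higher and 7 lower with a median log2 fold change of 0.07, and the upper 19 higher and 22 lower with a median of -0.03. Of 369 X-linked genes tested 0 were called higher and 1 (0.271%) lower, the gene being Slc7a3, beside 26 and 28 (0.521% together) of 10359 autosomal genes. The median log2 fold change was -0.01 for X-linked and 0.01 for autosomal genes. The called genes Eif4a2, Aqp3, Odc1, Rpl22l1 and Sprr2a3, named after their values were seen, had over 20% multimapping reads, so their values are uncertain. On uniquely mapping reads Aqp3, Eif4a2, Odc1 and Rpl22l1 were not called (edgeR adjusted p of 0.0282 to 0.767), and Sprr2a3 was not tested.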

How the data were processed

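The read counts are raw counts per gene as deposited by the authors, who per the study's methods mapped 3′ end reads with SLAM-DUNK, masked sequence variants and collapsed the 3′ UTR windows of a gene. Per the labels the build was GRCm38.p6 and FastQC 0.11.8 was used. Conversions, covered T positions and multimapping reads are counts from the same deposited files, which also give window length and T content. Genes were tested with edgeR 4.0.16 (quasi-likelihood, TMM factors, filterByExpr, Benjamini-Hochberg adjusted p under 0.01) in R 4.3.3, and DESeq2 1.42.0 was an alternative. SE is the log2 fold change over the square root of its F statistic. Positions are those of GENCODE. Genes named were the 8 largest called changes per direction (separate groups, at least 50 reads on average, at most 20% multimapping), up to 3 called members of each of 27 lists, a fixed set of genes, and the 4 smallest interaction p. The members and lists were chosen with earlier results of these data known. Replicates are independent biological ones per the study's methods. DMSO libraries of T1 to T7 were not used here, and some called genes are not reported here.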

Additional observations from a re-analysis of the deposited data

Results flagged for a closer look

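In 8 of 92 groups of 4 libraries examined, 1 library lay far from the other 3 relative to the range of the group, where chance gives about 4.60. Multimapping reads made up 25.9% of unlabelled replicate 2, against 27.3% to 27.6% in the rest. Csf2ra was at 21.4 CPM in labelled replicate 4, against 16.5 to 17.04 in the rest of its group. Slc16a3 was at 90.3 CPM in unlabelled replicate 1, against 57.4 to 59.7 in the rest of its group. Rrp9 was at 83.97 CPM in labelled replicate 2, against 121 to 128 in the rest of its group. Pgd was at 183 CPM in labelled replicate 1, against 205 to 207 in the rest of its group. Nodal was at 199.9 CPM in labelled replicate 2, against 143 to 144 in the rest of its group. Trp53 was at 98.7 CPM in unlabelled replicate 2, against 67.6 to 72.9 in the rest of its group. Nanog was at 311 CPM in unlabelled replicate 4, against 285 to 288 in the rest of its group.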

How the results depend on the processing

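The 55 genes called became 132 with DESeq2, 119 with no filter on low counts and 130 at an adjusted p under 0.05, and 13 to 63 with 1 library left out. The 48 with at least a 1.5-fold change became 88, 80 and 91, and 13 to 47. Fits with 1 library left out hold fewer samples, and otherwise the cause was not tested. With the replicate number as a block both counts were 27, all among the 55. That fit did not call Plk2, Csf2ra, Mettl27, Zfp688, Zfp703, Nodal, Evx1, T, Pglyrp1, Rrp9, Zfp428, Phc1, Aqp3, Eif4a2, Odc1, Rpl22l1 or Sprr2a3. Their edgeR adjusted p was 0.0103 to 0.0274. It called 6 p53 targets higher, 1 Zfp gene higher and 0 lower, and 0 ribosome assembly factors. In the formative and primed list it called 0 in either direction. Libraries with the same number do not deviate together: their correlations were 0.006, -0.008, -0.041 and -0.003, and none correlated best with its own number. Total counts gave 51, upper-quartile factors 51, a mean of at least 50 reads 54, uniquely mapping reads 46 and all 16 libraries in 1 fit 42. In every one of these fits the 55 kept their sign, of which 53 were tested with uniquely mapping reads. The interaction count was 0 with DESeq2, no filter, uniquely mapping reads, the block and each library left out. The difference in conversion rate was 1.17 to 1.22 percentage points with 1 library left out, where the exact test cannot reach 0.05. The counts per gene list under these alternatives were added after the data were seen. Zbtb24, Evx1, Pglyrp1, Myc and Hsd3b7 had few reads, 58.5, 55.4, 52.6, 36.1 and 19 per library on average. The effect of depth was not tested.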

Other observations

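The further called genes given here were chosen after their values were seen. Grsf1, an RNA-binding protein of mitochondria, was at 377 ± 39.98 CPM without s4U and 227 ± 20.3 CPM with it (SD, n = 4). Grsf1 had a log2 fold change of -0.73 ± 0.11 (SE, edgeR adjusted p = 0.000751), and the call did not end with any 1 library left out (adjusted p up to 0.00700, edgeR). The RNA 2410006H16Rik was at 527 ± 47.5 CPM without s4U and 809.6 ± 35.3 CPM with it (SD, n = 4). 2410006H16Rik had a log2 fold change of 0.62 ± 0.10 (SE, edgeR adjusted p = 0.00143), and the call did not end with any 1 library left out (adjusted p up to 0.00894, edgeR). Foxo3, a forkhead factor of stress responses, was at 30.8 ± 3.41 CPM without s4U and 57.6 ± 9.57 CPM with it (SD, n = 4). Foxo3 had a log2 fold change of 0.90 ± 0.16 (SE, edgeR adjusted p = 0.00323). Txnip, an inhibitor of thioredoxin, was at 72.99 ± 19.1 CPM without s4U and 124 ± 8.44 CPM with it (SD, n = 4). Txnip had a log2 fold change of 0.76 ± 0.15 (SE, edgeR adjusted p = 0.00602). Phc1, a subunit of Polycomb repressive complexes, was at 557 ± 42.9 CPM without s4U and 811 ± 51.3 CPM with it (SD, n = 4). Phc1 had a log2 fold change of 0.54 ± 0.10 (SE, edgeR adjusted p = 0.00323). Nefl, a neurofilament protein, was at 261 ± 36.04 CPM without s4U and 156 ± 25.98 CPM with it (SD, n = 4). Nefl had a log2 fold change of -0.74 ± 0.13 (SE, edgeR adjusted p = 0.00195). Ina, a related intermediate filament protein, was at 168 ± 15.3 CPM without s4U and 102 ± 14.2 CPM with it (SD, n = 4). Ina had a log2 fold change of -0.72 ± 0.12 (SE, edgeR adjusted p = 0.00186). Foxo3 was not called by edgeR without unlabelled replicate 2 or 3 or labelled replicate 3 or 4 (adjusted p of 0.0120 to 0.0274). Txnip was not called by edgeR without unlabelled replicate 3 or any 1 labelled replicate (adjusted p of 0.0167 to 0.0363), nor in the fit of all 16 libraries (adjusted p = 0.139). Phc1 was not called by edgeR without unlabelled replicate 3 or 4 or labelled replicate 2, 3 or 4 (adjusted p of 0.0111 to 0.0225). Nefl was not called by edgeR without unlabelled replicate 2 or 3 or labelled replicate 1, 3 or 4 (adjusted p of 0.0102 to 0.0170). Ina was not called by edgeR without unlabelled replicate 2 or 3 or labelled replicate 1 or 2 (adjusted p of 0.0111 to 0.0172). The groups did not overlap for any of these genes.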
